A study of Canis lupus familiaris with 29 samples.

Results

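The HGF response that remained, or was overshot, when MEK was inhibited was examined in Madin-Darby canine kidney (MDCK) cells, a single established line of dog kidney epithelium labelled type II, grown flat on transwell supports (2D). The comparison takes 11 of the 29 Affymetrix canine arrays of the series, chosen by their labelled culture and treatment. The first group is 4 arrays of cells given hepatocyte growth factor (HGF) with PD-98059, the second is 3 arrays of cells given HGF with U0126, and both are set against 4 arrays of 2D control cells. The 4 arrays of 2D cells given HGF alone enter as a comparison. The other 14 arrays are cells in 3D culture. The sources used here give no dose, time or solvent, and among the 29 arrays none is labelled as having an inhibitor without HGF, so the action of an inhibitor on HGF signalling and any action of its own cannot be told apart. No label says that arrays of a group came from separate cultures, so the p-values measure differences against a spread between arrays that may be technical, and the number of arrays limits the precision.

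HGF binds the receptor tyrosine kinase MET, which activates, among other routes, the RAS, RAF, MEK and ERK kinase cascade. ERK drives immediate early transcription factors such as FOS and EGR1 and the phosphatases of the DUSP family, which switch ERK off again. In MDCK cells HGF is known as scatter factor, because it makes the cells leave their epithelial sheet, move and form tubules. PD-98059 and U0126 both inhibit MEK.

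Levels are log2 values per probe set, and differences are between group means, with the standard error (SE) from limma. The inhibitor mean is the average of both inhibitor groups with equal weight. Rises and falls are those with an adjusted p under 0.05, and a mean level under log2 5 is called dim: a fold to or from a dim level rests on a signal near background. HGF, PD-98059 and U0126 are each set against the same 4 control arrays, so their differences are not independent of each other.

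Within each of the 4 groups in 2D the arrays correlated at 0.987 or more. On a principal component analysis of the 15 arrays in 2D, component 1 (65.2% of the variance) set the HGF arrays apart from the other 11. Component 2 (16.6%) separated the 7 inhibitor arrays, at -33.6 to -6.2, from the control arrays, at 33.9 to 41.3. An RNA-quality index, the mean 3′ excess over control probe sets of 3 transcripts (ACTB, EEF1A1, GAPDH), was 1.36 ± 0.0609 with PD-98059 (SD, n = 4), 1.31 ± 0.134 with U0126 (SD, n = 3), 0.838 ± 0.0476 with HGF alone and 1.44 ± 0.1 in control (SD, n = 4 each). The 7 inhibitor arrays differed from control in this index by -0.096 (exact two-sided permutation p = 0.136, where the smallest the design allows is 0.00303). The index of HGF alone lies below the other 3 groups, and its part in any comparison with HGF alone was not tested. Of 11 epithelial markers 9 reached log2 5, while CDH1 and PAX8 stayed dim on every 2D array, with highest levels of 3.84 and 3.58. No fibroblast (of 8) or endothelial (of 7) marker reached log2 5 in 2D, and of 8 leukocyte markers 1 did, CD68, in cells given HGF alone.

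Under both inhibitors most of the HGF response was gone, a part of it was left, and a smaller part was called past the control level. For the inhibitor mean against control, 2150 of 16570 tested probe sets (13%) rose and 2324 (14%) fell. For HGF alone 4353 (26.3%) rose and 4832 (29.2%) fell. Of the 4353 that rose with HGF, 1080 also rose for the inhibitor mean (left), 2825 did not pass, and 448 fell (overshot). Of the 4832 that fell with HGF, 1236 also fell, 3116 did not pass and 480 rose. Among the 1510 probe sets that HGF raised at least 2-fold the median difference from control was 0.14 with PD-98059, 0.13 with U0126 and 1.59 with HGF alone. Among the 1708 that HGF lowered at least 2-fold it was -0.29 with PD-98059, -0.24 with U0126 and -1.48 with HGF alone. Of the 1510, 33.8% rose for the inhibitor mean and 11.8% fell, beside 13% and 14% of all tested probe sets. Of the 1708, 35.9% fell and 9.13% rose, beside 14% and 13%. Overshoot in these sets was thus no more frequent than such calls over all probe sets. A further 590 probe sets rose and 640 fell for the inhibitor mean without passing for HGF. Missing the threshold does not show a return to control: the median 95% interval of the inhibitor mean reached 0.25 on either side of the estimate.

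**Figure D1:**
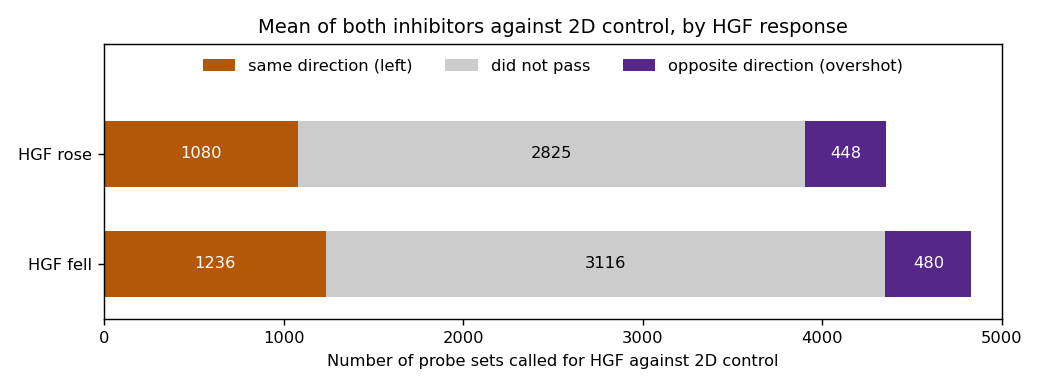
Number of probe sets that rose or fell with HGF alone against 2D control (horizontal axis), divided by their call for the mean of both inhibitors against the same control. The bar of those that rose with HGF holds 1080 left, 2825 that did not pass and 448 overshot, and the bar of those that fell holds 1236, 3116 and 480.

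Both inhibitors shared 1133 rises (6.84% of the tested probe sets) and 1074 falls (6.48%), each called separately against control. PD-98059 alone gave 2076 rises (12.5%) and 2161 falls (13%), and U0126, with 1 array fewer, gave 1400 (8.45%) and 1421 (8.58%). Without U0126 replicate 2, the falls with U0126 numbered 922. With limma array weights, U0126 gave 2176 rises and 2250 falls, and both inhibitors shared 3464 changes, 1790 of them falls, where 2207 were shared without weights. Only 2 probe sets were called in opposite directions. The shared changes held 685 rises and 637 falls that HGF alone also made, 204 falls of probe sets that HGF raised, 223 rises of probe sets that HGF lowered, and 225 rises and 233 falls that did not pass for HGF. Of the shared changes, 286 rises and 223 falls were at least 2-fold with each inhibitor. Over all tested probe sets the 7 inhibitor arrays and the 4 control arrays did not overlap in 2890 (17.4%), the background for such statements on a gene. Genes named for the largest shared changes were picked among those without overlap, so for them the lack of overlap is no added support.

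The shared rises included large ones of genes that HGF alone did not raise. FABP1, the liver-type fatty acid-binding protein, had levels of 7.48, 7.57, 8.23 and 7.60 with PD-98059, 7.25, 7.70 and 8.0 with U0126, 2.73, 3.47, 3.40 and 2.75 with HGF alone and 3.49, 3.28, 3.34 and 3.91 in control. All 7 inhibitor arrays lay above all 8 others, where the gene was dim, and the inhibitor mean was 18.1-fold above control (4.18 ± 0.21, adjusted p = 5.27e-14). CLDN10, a claudin of the kidney tubule that sets the ion selectivity of tight junctions, had 7.02, 6.53, 7.46 and 7.04 with PD-98059 and 5.83, 6.69 and 6.02 with U0126, against 2.83, 2.86, 2.98 and 2.79 in control. No inhibitor array overlapped with control, the gene was dim in control and with HGF alone, and the rise was 13.3-fold (3.73 ± 0.14, adjusted p = 4.14e-16). LIPA, the lysosomal acid lipase, rose by 3.30 ± 0.16 above a dim control level. TGFBI, a secreted matrix protein that binds integrins, rose by 2.95 ± 0.11, and FILIP1L by 2.94 ± 0.19, with 1 of its 2 probe sets passing. Neither TGFBI nor FILIP1L passed for HGF alone.

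Genes known as targets of the aryl hydrocarbon receptor, a ligand-activated transcription factor that induces enzymes of xenobiotic metabolism, were among the strongest rises. CYP1B1, a cytochrome P450, had 10.47, 10.85, 10.85 and 10.63 with PD-98059, 11.21, 11.27 and 10.71 with U0126, 7.39, 6.81, 7.26 and 7.08 with HGF alone and 7.85, 7.33, 7.59 and 7.20 in control on one of its 2 tested probe sets. The inhibitor arrays did not overlap with either other group, and CYP1B1 rose 10.5-fold (3.39 ± 0.23, adjusted p = 1.4e-11). The other probe set rose by 1.98 ± 0.18, while its difference with HGF alone was -0.61 ± 0.20. TIPARP, a target that represses the receptor in turn, had 9.99, 11.13, 11.35 and 10.71 with PD-98059, 11.17, 9.97 and 10.99 with U0126, 8.42, 9.56, 9.53 and 9.37 with HGF alone and 9.51, 9.10, 9.41 and 9.12 in control. It rose by 1.47 ± 0.34 (adjusted p = 0.00184) and the inhibitor and control arrays did not overlap. NQO1, a quinone reductase that NRF2 also induces, stood at 12.46, 12.08, 12.73 and 12.63 with PD-98059, 12.78, 12.83 and 12.72 with U0126, 12.42, 12.35, 12.22 and 12.26 with HGF alone and 9.12, 8.93, 9.24 and 9.09 in control. Its rise was 3.53 ± 0.09 under the inhibitors and 3.21 ± 0.10 under HGF alone, so NQO1 counts as left. The inhibitor mean was called above HGF alone (0.32 ± 0.09, adjusted p = 0.00444). For NQO1 an HGF response and an action of the inhibitors themselves cannot be told apart. AHR, the receptor itself, fell by 1.04 ± 0.11, with a difference of -0.79 ± 0.12 for HGF alone. Of 6 tested genes of this list (9 on the array) 3 rose and 1 fell, beside 14.7% and 13.7% of all 7052 genes. The list's median difference from control was 0.91, against 0.0 for all genes, and with HGF alone it was -0.66. Without U0126 replicate 3, 2 of the 6 fell.

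The largest overshoots among genes lowered by HGF alone and raised by both inhibitors included other enzymes of detoxification and lipid metabolism. MGST1, a microsomal glutathione transferase, rose by 2.87 ± 0.20 above a dim control level, against -1.34 ± 0.22 with HGF alone. EPHX1, the microsomal epoxide hydrolase, rose by 1.63 ± 0.13, also above a dim level, against -1.01 ± 0.14 with HGF. ACOT12, an acetyl-CoA thioesterase, had 9.57, 9.32, 9.74 and 9.66 with PD-98059, 9.20, 9.35 and 9.35 with U0126, 6.34, 6.48, 6.83 and 6.75 with HGF alone and 7.29, 7.15, 7.68 and 7.24 in control. The 3 conditions were separated without overlap, with HGF lowest and the inhibitors highest, and ACOT12 rose 4.27-fold over control (2.09 ± 0.21, adjusted p = 2.63e-08). RCAN1, a regulator of the phosphatase calcineurin, rose by 1.58 ± 0.22 against -2.39 ± 0.25 with HGF alone. GALNT12, which starts mucin-type O-glycosylation, rose by 1.55 ± 0.21 against -2.36 ± 0.23, and TNIP3, a partner of the NF-kB inhibitor A20, by 1.90 ± 0.24 against -0.67 ± 0.27. KLHDC9 rose by 1.52 ± 0.18 against -2.10 ± 0.21 with HGF. With HGF alone MGST1, EPHX1, TNIP3, GALNT12 and KLHDC9 were dim, so their falls with HGF rest on a signal near background. For MGST1 and EPHX1 those falls lie between dim levels.

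The HGF response of the proliferation genes was left. TTK, a kinase of the spindle checkpoint, had 8.31, 8.38, 8.51 and 8.52 with PD-98059, 7.58, 7.92 and 7.12 with U0126, 8.63, 8.81, 8.41 and 7.63 with HGF alone and 4.43, 5.54, 4.91 and 4.15 in control. The inhibitor arrays overlapped with those of HGF alone and lay above every control array, and TTK rose 9.38-fold (3.23 ± 0.22, adjusted p = 1.72e-11). The replication factor CDC6, which loads the MCM helicase onto origins, had 7.35, 7.11, 6.92 and 7.20 with PD-98059, 6.63, 6.76 and 6.29 with U0126, 8.42, 8.53, 8.36 and 8.36 with HGF alone and 4.71, 4.28, 4.34 and 3.55 in control. CDC6 rose 6.21-fold (2.64 ± 0.16) without overlap with control, yet all inhibitor arrays were below all HGF arrays. BUB1B, another checkpoint kinase (3.10 ± 0.28), PRC1, which bundles the central spindle (2.91 ± 0.18), and KIF15, a mitotic kinesin (2.66 ± 0.13 on the 1 of its 3 probe sets that passed), rose as well. So did TOP2A, a topoisomerase (3.10 ± 0.20 on 1 of its 2 probe sets, both of which rose), CENPT, a kinetochore protein (2.78 ± 0.18), and NCAPG2, a condensin subunit (2.72 ± 0.36). In control TTK, CDC6, BUB1B, PRC1, TOP2A, CENPT and NCAPG2 were dim, so the sizes of these rises rest on a signal near background. BIRC5, the mitotic survival factor survivin, rose by 1.16 ± 0.12 against 1.24 ± 0.13 with HGF alone.

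In the mitosis list 17 of 19 tested genes (20 on the array) rose for the inhibitor mean and none fell, also at an unadjusted p of 0.05, and all 17 rose with each inhibitor taken alone, as did 8.01% of all genes. The 2 that did not pass were ANLN and CENPF, named here after their values were seen. The list's median difference was 2.02 with PD-98059, 1.44 with U0126 and 1.82 with HGF alone, and for the inhibitor mean it was 1.73. Against HGF alone, 5 of the 19 were lower and 2 higher for the inhibitor mean, beside 29.4% and 28.4% of all genes. In the list of G1 and S phase 17 of 22 tested genes rose and 1 fell, beside 14.7% and 13.7% of all genes. That list's median was 0.83 for the inhibitor mean and 0.89 for HGF alone. MCM3 (1.68 ± 0.26, on 1 of its 2 probe sets) and MCM2 (1.44 ± 0.20), subunits of the replicative helicase, and cyclin E1, CCNE1 (0.97 ± 0.10, against 0.31 ± 0.11 with HGF alone), rose. The gene that fell was the D-type cyclin CCND2 (-0.31 ± 0.08), which HGF alone raised by 1.59 ± 0.09, and its fall did not pass with U0126 alone.

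**Figure D2:**
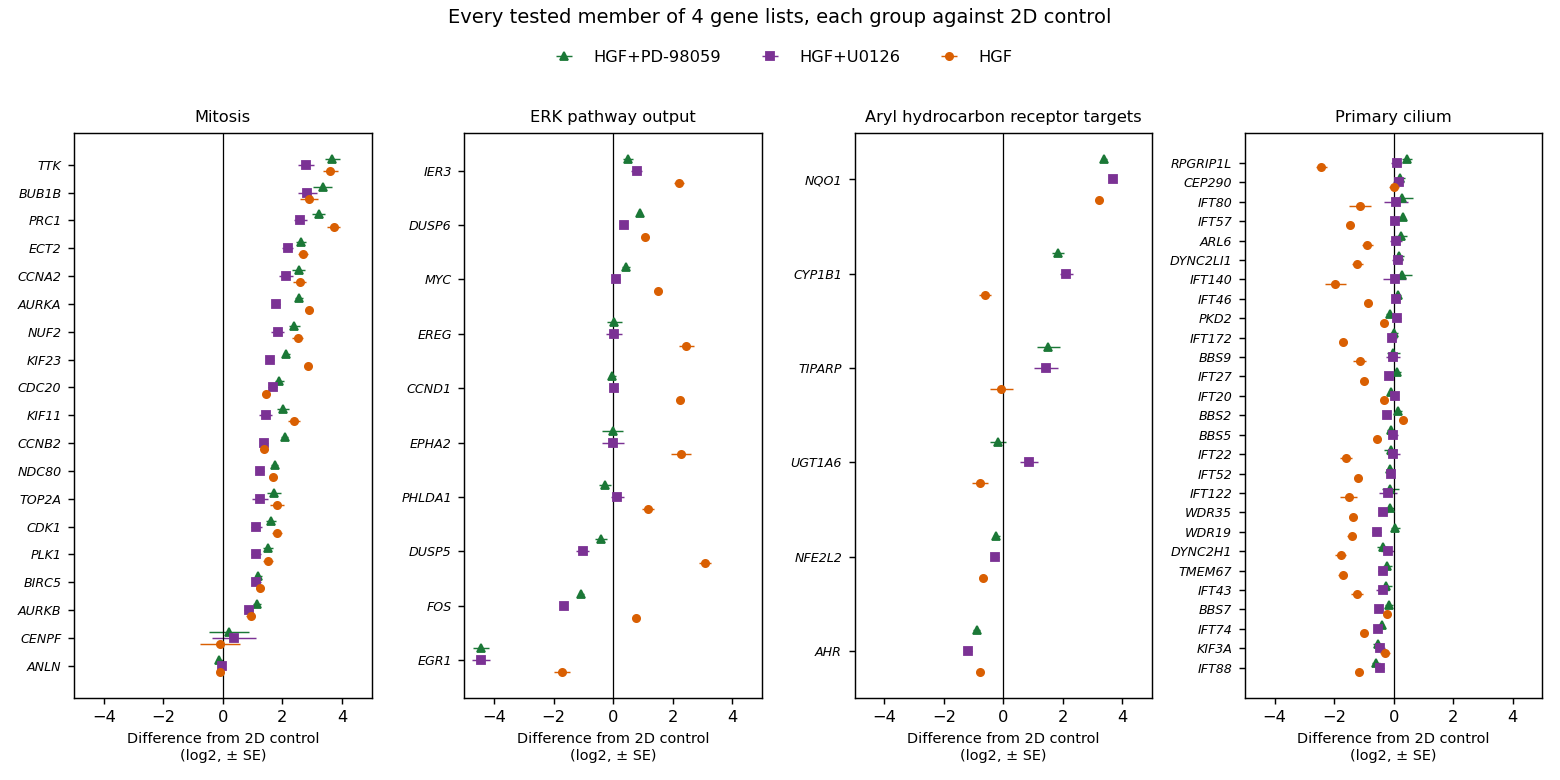
Difference from 2D control (horizontal axes, log2, bars ± SE) of each tested gene in 4 lists for HGF with PD-98059 (triangles), HGF with U0126 (squares) and HGF alone (circles). Of the 19 mitosis genes 17 lie right of 0 in all 3 groups, whereas the inhibitor values of most cilium genes lie near 0 and those of HGF alone lie left of it.

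Regulators of G1 that respond to ERK behaved otherwise. The cyclin CCND1 had 10.41, 10.39, 10 and 10.61 with PD-98059, 10.29, 10.58 and 10.38 with U0126, 12.78, 12.43, 12.59 and 12.74 with HGF alone and 10.25, 10.45, 10.36 and 10.50 in control. Inhibitor and control arrays overlapped, the difference between them was -0.01 ± 0.10 with a 95% interval of -0.22 to 0.21, and HGF alone differed from control by 2.25 ± 0.12. CDKN1A, the CDK inhibitor p21, differed from control by 0.13 ± 0.17 (95% interval -0.22 to 0.49), against 5.97 ± 0.19 with HGF alone. That mean joins -0.29 ± 0.19 with PD-98059 and 0.56 ± 0.21 with U0126, neither of which passed. Between the inhibitors CDKN1A was called higher with U0126 (0.85 ± 0.21, adjusted p = 0.0319). CDKN2B, the CDK inhibitor p15, which is dim in control, fell by 1.43 ± 0.15 although HGF alone raised it by 2.15 ± 0.17.

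Transcripts that report ERK activity were split. EGR1, an immediate early transcription factor, had 4.40, 4.41, 4.55 and 4.27 with PD-98059, 4.36, 4.39 and 4.42 with U0126, 6.83, 7.38, 6.81 and 7.43 with HGF alone and 8.82, 8.86, 8.49 and 9.17 in control. Every inhibitor array was dim and below every other array, and the inhibitor mean was 21.6-fold below control (-4.43 ± 0.24, adjusted p = 3.3e-13). HGF alone also lowered EGR1 (-1.72 ± 0.27). FOS had 12.99, 12.86, 12.86 and 13.18 with PD-98059, 12.46, 12.36 and 12.39 with U0126, 14.89, 14.70, 14.86 and 14.81 with HGF alone and 14.22, 14.03, 13.86 and 14.06 in control. FOS was lowest with U0126 and highest with HGF alone, with no overlap between groups, and the inhibitor mean fell by 1.35 ± 0.08 (adjusted p = 3.72e-12), where HGF alone raised it by 0.78 ± 0.09. DUSP5, a nuclear ERK phosphatase, fell by 0.71 ± 0.18 (adjusted p = 0.0033) against 3.08 ± 0.20 with HGF, although PD-98059 replicate 3, at 7.82, lay above the control arrays and the fall did not pass with PD-98059 alone. DUSP6, a cytoplasmic ERK phosphatase, had 13.27, 13.17, 13.41 and 13.54 with PD-98059, 12.65, 12.80 and 12.96 with U0126, 13.55, 13.53, 13.55 and 13.47 with HGF alone and 12.50, 12.54, 12.32 and 12.46 in control. All inhibitor arrays exceeded control, by 0.89 ± 0.09 with PD-98059 and 0.35 ± 0.10 with U0126, against 1.07 ± 0.09 with HGF alone. IER3, an immediate early survival gene, also stayed raised (0.65 ± 0.15, against 2.22 ± 0.17 with HGF), with 1 of its 2 probe sets passing.

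Of the 10 tested genes of the ERK output list (18 on the array), 2 rose and 3 fell for the inhibitor mean, beside 14.7% and 13.7% of all genes. With HGF alone 9 rose and 1 fell, beside 29.1% and 27.5%. For the inhibitor mean all 10 were below HGF alone, beside 29.4% of all genes, and 5 did not pass against control. The 5 that did not pass were EREG, a ligand of the EGF receptor (0.04 ± 0.22), the receptor kinase EPHA2 (-0.01 ± 0.30), PHLDA1 (-0.07 ± 0.18), CCND1 and MYC. EREG and EPHA2 were dim in the inhibitor and control groups, and EPHA2 also with HGF alone (mean 4.67). In 2D these genes reached log2 5 only on arrays of HGF alone. Their entry into the test rests on such arrays or on 3D culture, so their part in the counts with HGF alone is no added support. MYC, a transcription factor of growth, passed with PD-98059 (0.43 ± 0.13, adjusted p = 0.0153) and not with U0126 (0.09 ± 0.14, adjusted p = 0.74). With limma array weights the inhibitor mean of MYC passed too (adjusted p = 0.0178). SPRY4 and FOSL1, with highest levels of 1.92 and 2.35 on any array, were not tested.

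**Figure D3:**
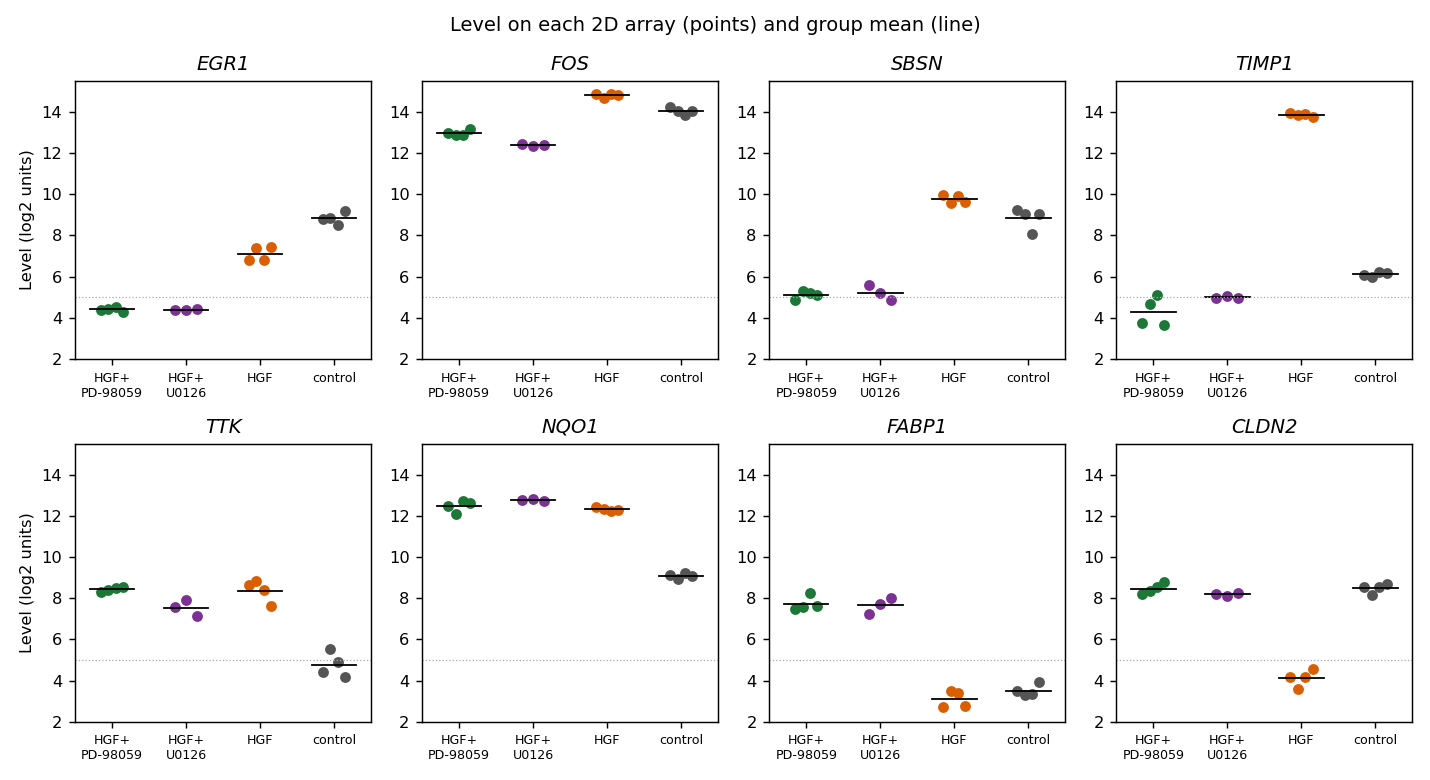
Level of 8 genes (vertical axes, log2 units, dotted line at log2 5) on each array in 2D, as points by group, with the group mean as a line. EGR1, FOS, SBSN and TIMP1 are lower in the inhibitor arrays than in control, TTK, NQO1 and FABP1 are higher, and CLDN2 overlaps with control.

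Several receptor and junction genes and some integrin subunits were lower with the inhibitors than in control. EGFR, the EGF receptor, fell by 0.54 ± 0.11 (adjusted p = 0.000484) without overlap with control, against 1.53 ± 0.12 with HGF alone. GAB1, the adaptor that MET uses for signalling, fell by 0.93 ± 0.18, against -1.42 ± 0.20 with HGF alone. The receptor MET itself fell by 0.41 ± 0.15 (adjusted p = 0.036), a call that was lost in 8 of the alternative settings and that neither inhibitor gave when taken alone. Of 9 tested genes of the MET and EGF receptor list (16 on the array) 6 fell, beside 13.7% of all genes. None rose, also at an unadjusted p of 0.05, and the list median was -0.42 against 0.48 with HGF alone. With each inhibitor taken alone 2 of the 9 fell in both, beside 6.59% of all genes. The integrin subunit ITGB6, which pairs with the alpha v subunit and activates TGF-beta, had 5.62, 6.01, 5.84 and 5.68 with PD-98059, 6.86, 6.21 and 6.42 with U0126, 8.59, 8.22, 8.29 and 8.37 with HGF alone and 8.50, 8.58, 8.29 and 8.31 in control on 1 of its 3 probe sets. Inhibitor arrays lay below the others without overlap, HGF and control overlapped, and ITGB6 fell 4.85-fold (-2.28 ± 0.17, adjusted p = 6.85e-11). A second probe set fell by 1.94 ± 0.12 and the other did not pass. ITGA2, a subunit of a collagen receptor, fell on its 2 probe sets (-1.95 ± 0.29 and -1.74 ± 0.27). In the integrin list 4 of 11 fell, 2 of them with both inhibitors taken alone, beside 13.7% and 6.59% of all genes. The list median was -0.02, near that of all genes. The count of falls for the inhibitor mean was 2 without control replicate 2 or without U0126 replicate 2.

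Of 16 tested junction genes 10 fell, beside 13.7% of all genes. None rose, also at an unadjusted p of 0.05, and the list median was -0.36 (-0.32 with HGF alone). Taken alone, PD-98059 gave 10 falls and U0126 5, beside 12.3% and 8.71% of all genes. With both inhibitors 4 fell, beside 6.59%. The falls included the claudins CLDN1 (-1.29 ± 0.32, to dim levels) and CLDN4 (-0.81 ± 0.19) and the tight junction protein cingulin, CGN (-0.70 ± 0.14). CLDN4 was raised by HGF alone (1.60 ± 0.21), so it overshot for the inhibitor mean, though its fall did not pass with U0126 alone (adjusted p = 0.0612), whereas CGN was lowered further by HGF alone (-1.61 ± 0.16). Of 13 genes of desmosomes and keratins 4 fell (7 with array weights), beside 13.7% of all genes. They included plakoglobin, JUP (-0.68 ± 0.15, against 1.28 ± 0.17 with HGF), and the simple-epithelium keratins KRT8 (-0.59 ± 0.08) and KRT18 (-0.43 ± 0.08). Among the 9 tested epithelial markers 6 fell for the inhibitor mean and 2 with both inhibitors taken alone, beside 13.7% and 6.59% of all genes. ESRP1, an epithelial splicing regulator, fell by 1.13 ± 0.33 on 1 of its 2 probe sets and did not pass with U0126 alone. The summed log2 level of the 11 epithelial markers was 101.6 to 102.3 with PD-98059, 101.6 to 103.7 with U0126 and 105.9 to 106.4 in control, and its part in these results was not tested.

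Several of the invasion genes that HGF induced did not pass against control with the inhibitors, while TIMP1 and PLAU fell below it. TIMP1, an inhibitor of metalloproteinases, had 3.74, 4.67, 5.09 and 3.67 with PD-98059, 4.96, 5.08 and 4.97 with U0126, 13.95, 13.84, 13.88 and 13.74 with HGF alone and 6.09, 5.97, 6.23 and 6.18 in control. The inhibitor arrays were below control without overlap, PD-98059 at a dim mean level and U0126 at log2 5, and TIMP1 overshot toward background (-1.47 ± 0.25, adjusted p = 6.36e-05), against 7.74 ± 0.28 with HGF alone. The collagenase MMP13 differed from control by 0.09 ± 0.30 (95% interval -0.53 to 0.72), against 7.11 ± 0.34 with HGF alone. TFPI2, an inhibitor of serine proteases, differed by 0.33 ± 0.21 (-0.10 to 0.76), against 6.22 ± 0.23 with HGF. MMP1 (0.06 ± 0.40) and MMP9 (0.0 ± 0.22), an interstitial collagenase and a gelatinase, did not pass. MMP13, TFPI2, MMP1 and MMP9 were dim in the inhibitor and control groups, so a difference between those groups would lie near background. MMP9 was dim with HGF alone as well (mean 3.83), where it differed from control by 1.12 ± 0.24. The mesenchymal filament gene VIM did not pass either (-0.08 ± 0.08, against 0.62 ± 0.09 with HGF). PLAU, the urokinase plasminogen activator, fell by 0.90 ± 0.22 and did not pass for U0126 alone (-0.62 ± 0.27) or HGF alone (0.09 ± 0.25).

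Part of the induction was left in 3 genes of this kind. SERPINE2, a serine protease inhibitor, had 9.77, 9.46, 9.65 and 9.83 with PD-98059, 9.16, 8.88 and 9.23 with U0126, 12.86, 12.88, 13.02 and 12.98 with HGF alone and 7.94, 7.96, 8.05 and 7.96 in control. The inhibitor arrays lay between HGF and control without overlap, and 28.3% of the HGF difference was left on the log2 scale (1.40 ± 0.11, adjusted p = 3e-10), with 2 of its 3 probe sets passing. SNAI2, a repressor of epithelial genes, kept 1.08 ± 0.11 of 5.35 ± 0.12. PTGS2, the inducible prostaglandin synthase, had 9.0, 8.43, 8.72 and 9.07 with PD-98059, 8.80, 8.50 and 7.36 with U0126, 12.16, 11.93, 12.20 and 12.29 with HGF alone and 6.59, 6.01, 6.10 and 6.83 in control. PTGS2 stayed 4.38-fold above control (2.13 ± 0.21, adjusted p = 1.31e-08), without overlap, against 5.76 ± 0.23 with HGF. In the list of matrix proteases and inhibitors 1 of 13 tested genes (16 on the array) rose and 2 fell, with a median of 0.0. Of all genes 14.7% rose and 13.7% fell. With HGF alone 9 of the list rose, beside 29.1% of all genes, and its median was 2.07. In 2D, MMP1, MMP13 and TFPI2 reached log2 5 only with HGF alone, so for such genes a rise with HGF is no added support. Without control replicate 3, 2 genes of the list rose for the inhibitor mean.

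Other genes that HGF raised fell below control with both inhibitors. SBSN, a secreted protein of differentiating epidermis, had 4.86, 5.31, 5.20 and 5.09 with PD-98059, 5.60, 5.21 and 4.88 with U0126, 9.97, 9.59, 9.94 and 9.63 with HGF alone and 9.24, 9.03, 8.09 and 9.06 in control. All inhibitor arrays lay far below the other 8, and SBSN fell 12.8-fold (-3.68 ± 0.21, adjusted p = 9.88e-13) against 0.93 ± 0.24 with HGF. HYAL1, a hyaluronidase, fell by 1.82 ± 0.13 against 2.31 ± 0.14 with HGF. OSBPL3, of the oxysterol-binding protein family, fell by 1.54 ± 0.14 against 1.37 ± 0.16 with HGF. BST1, an ADP-ribosyl cyclase at the cell surface (-1.34 ± 0.16), and the membrane transporter SLC4A11 (-1.49 ± 0.12) fell too, both to dim levels. Falls that did not pass for HGF alone included FLT1, a VEGF receptor (-2.58 ± 0.45), the stress kinase MAP3K5 (-2.16 ± 0.49), the scaffold protein DLG2 (-1.95 ± 0.17) and AMDHD1, an enzyme of histidine breakdown (-1.59 ± 0.23), all to dim levels.

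Several genes of the differentiated tubule, and the mTOR regulator DEPTOR, were lowered by HGF alone and near control with the inhibitors. CLDN2, the claudin of cation pores in the proximal tubule, had 8.18, 8.34, 8.54 and 8.78 with PD-98059, 8.19, 8.12 and 8.26 with U0126, 4.18, 3.60, 4.16 and 4.54 with HGF alone and 8.56, 8.14, 8.54 and 8.71 in control. Inhibitor and control arrays overlapped, and the difference was -0.17 ± 0.18 (95% interval -0.53 to 0.20), against -4.37 ± 0.20 with HGF. CLTRN, collectrin, which carries amino acid transporters to the surface, differed by -0.18 ± 0.28 (-0.75 to 0.38), and DEPTOR, an inhibitor of mTOR, by -0.08 ± 0.38 (-0.87 to 0.71). With HGF alone CLTRN differed by -5.96 ± 0.31 and DEPTOR by -4.49 ± 0.43. PDZK1, a scaffold of apical transporters, had 13.64, 13.37, 13.60 and 13.90 with PD-98059, 13.02, 13.08 and 13.15 with U0126, 6.98, 6.56, 7.91 and 7.04 with HGF alone and 12.70, 12.75, 12.32 and 12.65 in control. For the inhibitor mean PDZK1 overshot, with all inhibitor arrays above control (0.75 ± 0.18, adjusted p = 0.00234), against -5.48 ± 0.20 with HGF. Taken alone, PD-98059 passed (1.02 ± 0.20) and U0126 did not (0.48 ± 0.22, adjusted p = 0.139). SCTR, the secretin receptor, fell by 0.65 ± 0.19, against -4.81 ± 0.21 with HGF. With HGF alone CLDN2, CLTRN and SCTR were dim, so the sizes of their falls with HGF rest on a signal near background.

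Some tubule genes stayed clearly below control. SLC22A2, a transporter of organic cations, fell by 2.34 ± 0.38, although control replicate 3, at 7.88, lay among the inhibitor arrays. ALPL, alkaline phosphatase, fell by 1.58 ± 0.17 against -3.22 ± 0.19 with HGF, and was dim with PD-98059 and with HGF. SLC12A2, the sodium, potassium and chloride cotransporter, fell by 1.46 ± 0.12, against -1.01 ± 0.13 with HGF. Of 12 tested kidney tubule genes (27 on the array) 1 rose and 4 fell, beside 14.7% and 13.7% of all genes. With both inhibitors taken alone 4 fell, beside 6.59% of all genes. The list median was -0.13 against -1.0 with HGF alone, where 8 fell, beside 27.5% of all genes. CDH16, the kidney cadherin, did not pass (0.14 ± 0.14), while 2 of its 3 probe sets fell.

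The primary cilium, a sensory antenna of kidney cells built by intraflagellar transport, had its genes close to control. Of 27 tested genes (33 on the array) 4 fell for the inhibitor mean and 2 with both inhibitors taken alone. These counts are close to the 13.7% and 6.59% of all genes. The median difference was -0.04. With HGF alone 23 fell, beside 27.5% of all genes, with a median of -1.18. Without control replicate 3, 2 of the 27 fell for the inhibitor mean. For the inhibitor mean 23 of the 27 were above HGF alone, beside 28.4% of all genes. The intraflagellar transport genes IFT88 (-0.54 ± 0.12, against -1.18 ± 0.14 with HGF, with 2 of its 4 probe sets falling) and IFT74 (-0.47 ± 0.08, against -0.99 ± 0.09) were among those whose fall was partly left. Of 8 tested genes of the motile axoneme 1 fell, beside 13.7% of all genes. It was DRC1, a dynein regulator (-0.88 ± 0.16, against -5.18 ± 0.18 with HGF alone, where it was dim). The list median was 0.01 against -1.74 with HGF alone.

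Among the falls with HGF that were left were those of the complement genes C3 and CFI. C3, the central complement component, had 5.60, 5.17, 5.79 and 5.53 with PD-98059, 5.93, 6.03 and 6.24 with U0126, 4.98, 5.13, 5.19 and 5.69 with HGF alone and 8.04, 8.65, 8.14 and 8.48 in control. The inhibitor arrays were all below control, and C3 fell 5.8-fold (-2.54 ± 0.18, adjusted p = 2.65e-11), which is 82.3% of the HGF difference. CFI, the protease that cleaves C3b, fell by 2.60 ± 0.32 against -2.76 ± 0.36 with HGF alone. Other falls that were left were TBXAS1, thromboxane synthase (-2.71 ± 0.15, to a dim level), SELENOP, a selenium carrier (-2.43 ± 0.25), and MAP3K1, a kinase upstream of JNK (-1.63 ± 0.26). MEF2A, a transcription factor (-2.22 ± 0.27), CCDC171 (-2.44 ± 0.21), both to dim levels, and FAM149A (-2.02 ± 0.20) did likewise. ADAM28, a metalloprotease, fell by 2.75 ± 0.18, against -1.43 ± 0.20 with HGF alone, and was dim with both inhibitors. STOM, the membrane protein stomatin, did the same, with -2.25 ± 0.26 against -0.80 ± 0.30, and was dim with U0126. ACAP2, a regulator of ARF6, fell by 2.32 ± 0.38. ISG15, an interferon-induced ubiquitin-like protein, fell by 1.03 ± 0.13 and did not pass for HGF alone (0.03 ± 0.15). The cytokine CSF2 rose by 1.24 ± 0.27 above a dim control level, against 2.48 ± 0.31 with HGF. Of 18 tested genes of the inflammation and interferon list 3 rose and 4 fell, close to the background of all genes.

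Cholesterol and fatty acid synthesis kept part of its HGF response. Of 19 tested genes 11 rose for the inhibitor mean, 6 of them with both inhibitors taken alone, beside 14.7% and 8.01% of all genes. Below HGF alone were 14, beside 29.4% of all genes. None fell, also at an unadjusted p of 0.05, with a list median of 0.59 with PD-98059, 0.27 with U0126 and 1.17 with HGF alone. INSIG1, which holds the SREBP activator in the endoplasmic reticulum, rose by 0.88 ± 0.11 against 3.62 ± 0.13 with HGF, on 1 of its 2 probe sets. The synthesis enzymes DHCR7 (1.20 ± 0.13) and FDPS (1.15 ± 0.09) rose as well. In the hypoxia and glycolysis list 9 of 25 rose, 6 of them with both inhibitors taken alone, and 2 fell, beside 13.7% of all genes. With HGF alone 23 rose, beside 29.1% of all genes. With quantile normalization applied again 14 of the 25 rose for the inhibitor mean. SLC16A3, a lactate exporter, rose by 2.06 ± 0.26 above a dim control level, against 4.29 ± 0.29 with HGF. PFKFB3, a stimulator of glycolysis, rose by 0.79 ± 0.15 against 3.91 ± 0.17, on 1 of its 2 probe sets. NDRG1, which is dim in control, fell by 0.90 ± 0.14, against 1.76 ± 0.16 with HGF. EGLN3, an oxygen sensor, was 0.93 ± 0.35 above a dim control level (adjusted p = 0.0479) on 1 of its 2 probe sets, did not pass with U0126 alone, and this call was lost in 17 alternative settings.

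The ribosome biogenesis list had 8 of 21 genes that rose, beside 14.7% of all genes, and 5 without control replicate 3 or without control replicate 4. None fell, also at an unadjusted p of 0.05. With both inhibitors taken alone 4 of the 21 rose, beside 8.01% of all genes. The rises include the nucleolar proteins NOP56 (0.60 ± 0.09, on 1 of its 2 probe sets), NOP2 (0.49 ± 0.09) and PES1 (0.56 ± 0.12), the last of which HGF alone lowered (-0.87 ± 0.14). Of 24 genes of oxidative phosphorylation 6 rose for the inhibitor mean, beside 14.7% of all genes, and none fell, also at an unadjusted p of 0.05. With HGF alone 10 fell, beside 27.5% of all genes. The list median was 0.03 for the inhibitor mean, near that of all genes, and -0.19 with HGF alone. Taken alone, PD-98059 raised 6 of the 24, beside 14.3% of all genes, and U0126 raised 1, beside 9.83%. That gene was CYC1, a subunit of complex III, which rose by 0.58 ± 0.11 for the inhibitor mean against -0.28 ± 0.12 with HGF. In the list of ATF4 and the unfolded protein response 6 of 13 rose and 2 fell, beside 14.7% and 13.7% of all genes. PSAT1, an enzyme of serine synthesis, kept a rise of 0.63 ± 0.08, whereas DDIT3, a stress transcription factor (-0.53 ± 0.13, against 2.88 ± 0.15 with HGF), and HERPUD1 (-0.64 ± 0.07, against 0.33 ± 0.08), which serves degradation at the endoplasmic reticulum, overshot.

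**Figure D4:**
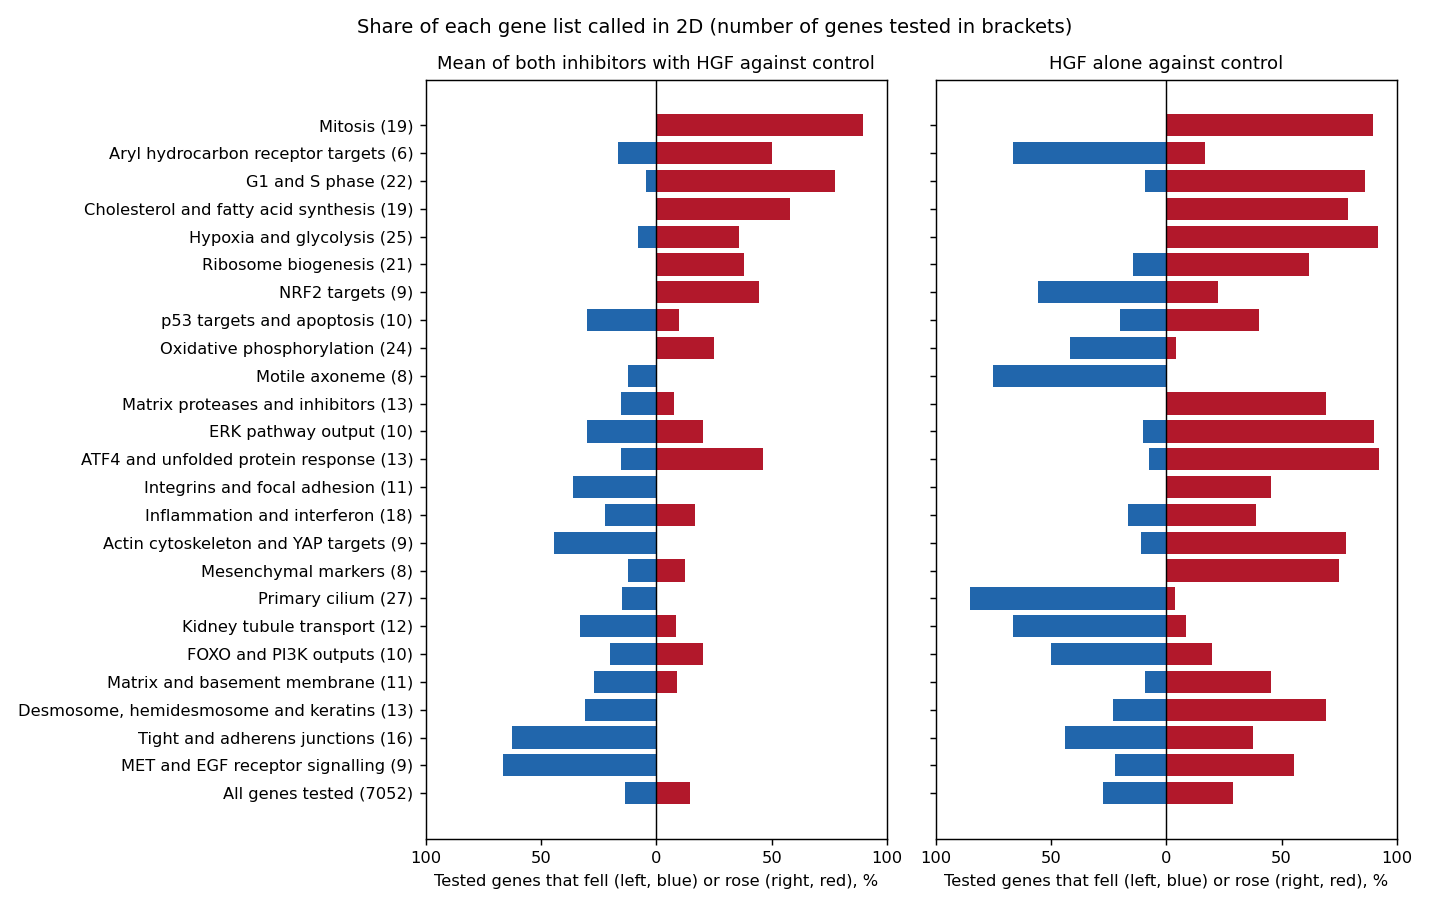
Share of the tested genes of 24 lists and of all 7052 genes that rose (right) or fell (left), in percent, for the mean of both inhibitors with HGF (left panel) and for HGF alone (right panel), both against 2D control. Among all genes 14.7% rose and 13.7% fell for the inhibitor mean, and 29.1% and 27.5% for HGF alone.

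The inhibitors themselves differed at few probe sets. For U0126 minus PD-98059, the 1 pair of compounds compared, 140 probe sets (0.845%) were higher and 129 (0.779%) lower with U0126, and 59 of these were at least 2-fold apart. These counts rest on few arrays: 75 were higher without U0126 replicate 3 and 86 without U0126 replicate 2, while 70 were lower without U0126 replicate 1, 82 without PD-98059 replicate 4 and 208 without PD-98059 replicate 2. The median 95% interval of the difference reached 0.30 on either side, and it lay within a 2-fold difference for 15505 of the 16570 probe sets. It did so for 2031 (92.0%) of the 2207 shared changes. Of the shared changes 106 were themselves called between the inhibitors, and of the 2640 probe sets called with 1 inhibitor only, 154 were. Since doses are not given, these differences cannot be told apart from a difference in effective dose.

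DKK3, a secreted protein of the dickkopf family, had 5.16, 4.77 and 4.25 with U0126 and 7.50, 7.94, 7.91 and 8.06 with PD-98059, against 6.07, 5.73, 4.79 and 5.73 with HGF alone and 3.61, 4.04, 3.86 and 4.14 in control. It was 8.73-fold lower with U0126 (-3.13 ± 0.25, adjusted p = 2.34e-08), with no overlap, and the PD-98059 arrays lay even above those of HGF alone. DKK3 was dim with U0126 and in control, so this fold rests on a signal near background. HEPH, an iron oxidase, had 5.22, 5.12 and 5.14 with U0126 and 7.37, 6.63, 6.93 and 7.37 with PD-98059, against 10.49, 10.18, 10.54 and 10.49 with HGF alone and 5.12, 5.41, 5.15 and 5.14 in control. U0126 arrays overlapped with control (-0.05 ± 0.22, 95% interval -0.50 to 0.40), while PD-98059 left a rise of 1.87 ± 0.20. FGFBP1, which releases stored fibroblast growth factors, kept 1.94 ± 0.36 with U0126 and 4.21 ± 0.34 with PD-98059 of the 5.51 ± 0.34 seen with HGF, above a dim control level. ANGPTL4, an inhibitor of lipoprotein lipase, kept 0.69 ± 0.18 and 2.27 ± 0.17 of 3.77 ± 0.17 in the same order.

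Against control, SYT13, of the synaptotagmin family, fell by 2.53 ± 0.18 to a dim level with U0126 and did not pass with PD-98059 (-0.36 ± 0.17). The receptor GPR18 rose with PD-98059 (1.61 ± 0.21) and did not pass with U0126 (-0.08 ± 0.23). Higher with U0126 were HOGA1, a mitochondrial enzyme of hydroxyproline breakdown (1.74 ± 0.18), IL13RA2, a decoy receptor of interleukin 13 (1.64 ± 0.22), and CLIC3, a chloride channel family protein (1.35 ± 0.18). HOGA1 was dim with both inhibitors, and against control it fell with U0126 (-0.54 ± 0.18) and with PD-98059 (-2.28 ± 0.17). IL13RA2 and CLIC3 were dim with PD-98059. GDPD3, a lipid phosphodiesterase (1.30 ± 0.16), and the RNA helicase DDX39B (1.29 ± 0.24) were higher too, the last on 1 of 2 probe sets shown. One probe set of C2, a complement protease, was higher by 1.42 ± 0.26, while the gene's 3 probe sets did not share a direction against control.

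Further genes also differed in level between the inhibitors. SNAI2 was lower with U0126 (-1.09 ± 0.13, adjusted p = 1.4e-05), as were DUSP6 (-0.54 ± 0.10), FOS (-0.57 ± 0.10) and CLDN10 (-0.83 ± 0.18). So was KLF4, a transcription factor of epithelial differentiation (-0.97 ± 0.17). FILIP1L (1.21 ± 0.24) and CDKN1A (0.85 ± 0.21) were higher. Where no difference was called, its interval was -0.62 to 0.59 for EGR1, -0.59 to 0.44 for FABP1, 0.07 to 0.53 for NQO1 and -1.44 to -0.34 for TTK. The last of these reaches past a 2-fold difference. In the mitosis list 3 of 19 genes were lower with U0126, and in the cholesterol list 4 of 19, beside 65 of all 7052 genes (0.922%).

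**Figure D5:**
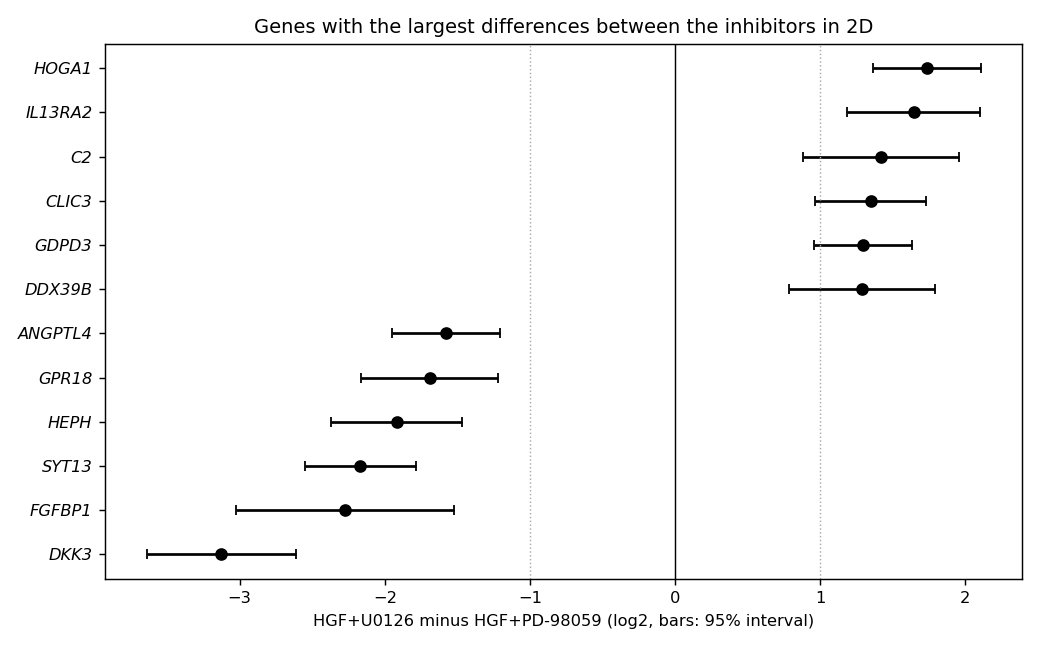
Difference of HGF with U0126 minus HGF with PD-98059 in 2D (horizontal axis, log2, bars: 95% interval, dotted lines at a 2-fold difference) for the 6 named genes with the largest difference in each direction. DKK3 lies farthest below 0 and HOGA1 farthest above it.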

How the data were processed

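The 29 arrays were mapped to 8 groups of culture and treatment from their titles, and the comparison used 11 of them. The authors deposited log2 levels for 43035 probe sets, used here without further normalization. The tools named per the submitters' processing notes, with no role or order given, are GCRMA, MAS5, Partek 6.6 and Affymetrix Expression Console 1.1. Of 42860 probe sets that are not controls or reporters, 16570 had log2 5 or more on 3 or more arrays of the 29 and were tested. Probe sets that reached log2 5 only in certain groups were tested through those groups, which can favour calls toward them in the list counts. Symbols come from the platform annotation, updated by gene identifier for 27680 of the 29254 probe sets with a single gene; no genome positions were used.

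Group means over all 29 arrays were fitted with limma 3.58.1 in R 4.3.3 (lmFit, eBayes with a trend), with 6 two-sided contrasts, each adjusted over the 16570 probe sets by the Benjamini-Hochberg method. Lists used for each gene the probe set with the highest mean, 7052 genes in all. The steps were tested on simulated data.

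Genes were named by rule from those with 1 symbol: the 12 largest shared changes in each direction, the 8 largest overshoots, the 6 largest left and the 6 largest that did not pass for HGF, all without overlap between the 7 inhibitor and 4 control arrays. To these come the 6 largest differences between the inhibitors in each direction, up to 3 called members of a list in each direction, and a fixed set. Members and lists were chosen with earlier results of these data known. Some named genes are given in figures alone. Alternatives were other filters, variance models, normalizations, array weights, blocks, a covariate, a 2-fold threshold and each 2D array left out.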

Additional observations from a re-analysis of the deposited data

Results flagged for a closer look

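Among 387 groups of 4 arrays examined for the genes described and the RNA-quality index, 26 held 1 array far from the other 3 relative to the group's range, and chance alone flags about 5% of groups, or 1 in 20. The U0126 group, with 3 arrays, was not examined. In control, SLC22A2 was 7.88 in replicate 3, where the others were 10.31 to 10.65, and CSF2 was 4.41 in replicate 4, where the others were 3.53 to 3.58. CLDN1 was 5.26, ANGPTL4 5.57 and HEPH 5.41 in control replicate 2, CYC1 was 10.09 in control replicate 4 and TGFBI 5.48 in control replicate 1.

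With PD-98059, replicate 2 had the lowest level of PLAU, 4.52 beside 5.58 to 5.60 in the others, and the highest of STOM, 5.68 beside 4.87 to 4.92. PD-98059 replicate 3 stood apart with 8.23 for FABP1, 6.35 for CLDN4, 3.12 for MMP9 and 3.56 for MAP3K5. PD-98059 replicate 4 had 8.48 for KIF15 and 4.92 for MMP13, and PD-98059 replicate 1 had 4.29 for NDRG1. With HGF alone, replicate 1 had 8.42 for TIPARP, 9.25 for CLIC3, 8.22 for DDX39B and 5.41 for C2. HGF replicate 2 had 10.18 for HEPH, 3.41 for MMP9 and 3.33 for DRC1, HGF replicate 3 had 3.41 for MEF2A, and HGF replicate 4 had 3.73 for TBXAS1 and 2.47 for GPR18.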

How the results depend on the processing

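No result reversed, and 135 of 151 results on named genes kept their side of the threshold in all of up to 25 settings. Counts that moved over 1.5 times were mostly those between the inhibitors. For U0126 minus PD-98059, the probe sets higher and lower (140 and 129) were 254 and 246 with quantile normalization applied again, 276 and 243 with array weights and 230 and 241 with RNA quality as a covariate, and 197 were lower with median centring. Leaving out 1 array gave 75 to 167 higher and 70 to 208 lower. With array weights U0126 gave 2176 rises and 2250 falls, the shared falls were 1790, and 737 probe sets that HGF lowered overshot. Leaving out 1 array gave 922 to 1474 falls with U0126, where 1421 were called. At least 2-fold, the inhibitor mean had 366 rises and 425 falls, and both inhibitors shared 286 and 223. Quantile normalization moved the share of rises among calls of the inhibitor mean to 52.6%, where it was 48.1%. Neither the replicate numbers of the titles nor those of the sample names paired the arrays throughout. Correlations of deviations were over 0.1 in 7 of 21 pairs by title (-0.307 to 0.323) and in 10 of 21 by sample name (-0.432 to 0.334). The array of the same number was the best match in 8 of the 21 by title and 10 by sample name. With the title number as a block both inhibitors shared 2267 changes, of which 2066 are among the 2207 without it, and with the sample-name number 2143. Signal near background limits genes under log2 5, and the cause of each move was not tested.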
